A study of Mus musculus with 22 samples.

Results

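The collagen chain genes encode the polypeptides that wind, in groups of like or unlike chains, into collagen molecules. They were taken as every gene on the array whose symbol reads Col, a number, the letter a and a number, which gave 32 of 11807 named genes. By the type of collagen they comprise 8 fibrillar chains, 8 chains of basement membranes and 16 others. Where a gene had several probe sets, as 15 of the 32 did, the brightest on average across the 22 arrays stands for it.

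The arrays hold RNA of aortic endothelial cells scraped with collagenase from the opened aorta of C57BL/6 mice. Fresh intima came from wild-type mice (n = 6) and ApoE -/- mice (n = 4), both aged 4 weeks and on chow, the knockout being labelled hyperlipidemic and pre-lesioned. In this model hyperlipidemia and the loss of Apoe come together. The remaining 12 arrays are of opened wild-type aortas, of an age the labels leave out, kept for 4 h in DMEM with 1% serum before the intima was scraped. They are in groups of 3, with the medium alone, lipopolysaccharide (LPS, a bacterial cell wall component) at 4 ng/mL, oxidized low-density lipoprotein (oxLDL) at 50 µg/mL, or oxPAPC, a mixture of oxidized phospholipids made from palmitoyl-arachidonoyl-phosphocholine, at 50 µg/mL. How many animals gave the RNA of an array is not in the labels, so every p-value measures the spread between arrays.

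Fibrillar collagens form the load-bearing fibrils of the vessel wall and are made mainly by smooth muscle cells and fibroblasts. Type IV collagen is the network-forming collagen of basement membranes, on which endothelial cells rest and which surrounds each smooth muscle cell. Its Col4a1 and Col4a2 chains assemble with each other in nearly all basement membranes. Col4a3 and Col4a4 assemble with Col4a5, and Col4a5 also with Col4a6, the latter network being known from smooth muscle. Col15a1 and Col18a1 chains sit at the outer face of basement membranes, and type VI chains form beaded filaments beside them.

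Levels are log2 signals, on which a difference of 1 is a doubling. The dim end of each array was marked by its 40th percentile over all probe sets, which lay between 4.58 and 4.71. On none of the 22 arrays did Col5a3, Col11a1, Col11a2, Col9a2, Col25a1 or Col26a1 exceed it, and Col2a1 and Col13a1 exceeded it on 1 array each. These genes could not be tested, and 22 or 23 of the 32 entered each comparison. Of 14 endothelial markers, 12 or more lay above the percentile on every array, and all 12 smooth muscle markers lay above it on nearly all arrays, with 11 as the lowest number. RNA of smooth muscle was thus measured beside that of endothelium, and in such bulk samples fewer cells of a type and less RNA per cell cannot be told apart. Apoe itself read 3.04 to 3.23 in the knockout and 3.78 to 4.35 in fresh wild type, below the percentile on all arrays. It read 3.06 to 3.18 with oxPAPC and 3.08 to 3.55 with LPS, so that the oxPAPC arrays and LPS replicate 10 lay within the knockout range although those aortas are labelled wild type, and whether its probe set lies in the deleted part is not known here.

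The type IV genes lie in head-to-head pairs, so the windows around their starts are shown first, because the chains are compared by pair in the results. All sequences are from RefSeq, assembly GRCm38.p6, each window running from 250 bases before to 50 after a gene's start, written 5′ to 3′ on the gene's own strand. Col4a1 (chr8:11312777-11313076, minus strand) and Col4a2 (chr8:11312555-11312854, plus strand) start 21 bases apart. The starts cross, so that the genes overlap over their first transcribed bases. Their windows share 78 bases, which stand in capitals and are reverse complements of each other. This shared stretch lies in transcribed bases of 1 gene or both.
Col4a1: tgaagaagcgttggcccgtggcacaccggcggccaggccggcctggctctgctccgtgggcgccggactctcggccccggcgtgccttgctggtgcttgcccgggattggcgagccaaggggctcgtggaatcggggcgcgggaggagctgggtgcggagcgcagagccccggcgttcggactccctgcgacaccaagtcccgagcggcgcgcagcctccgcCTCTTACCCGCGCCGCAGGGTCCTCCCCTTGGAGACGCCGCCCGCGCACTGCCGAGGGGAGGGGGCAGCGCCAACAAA
Col4a2: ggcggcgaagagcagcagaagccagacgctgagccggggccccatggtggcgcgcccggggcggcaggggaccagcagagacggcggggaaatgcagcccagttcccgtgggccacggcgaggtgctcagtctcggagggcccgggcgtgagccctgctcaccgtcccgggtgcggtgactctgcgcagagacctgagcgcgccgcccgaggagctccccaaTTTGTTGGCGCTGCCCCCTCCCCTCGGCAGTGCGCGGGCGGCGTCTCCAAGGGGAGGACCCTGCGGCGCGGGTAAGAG
Both windows were rich in G and C (74% and 73.7%), and the CCAAT motif (reverse complement ATTGG) occurred in each.

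The Col4a5 window (chrX:141475169-141475468, plus strand) and the Col4a6 window (chrX:141474027-141474326, minus strand) share no base, the starts being 1343 bases apart. Capitals mark a CCAAT motif 196 bases before the Col4a5 start, a GC box (GGGCGG) 30 bases before it, and the reverse complement of a GC box (CCGCCC) 21 bases before the Col4a6 start. Col3a1, the fibrillar chain that was called with a stimulus, is added for contrast (chr1:45311288-45311587, plus strand), with a TATAAA motif 117 bases before the start in capitals.
Col4a5: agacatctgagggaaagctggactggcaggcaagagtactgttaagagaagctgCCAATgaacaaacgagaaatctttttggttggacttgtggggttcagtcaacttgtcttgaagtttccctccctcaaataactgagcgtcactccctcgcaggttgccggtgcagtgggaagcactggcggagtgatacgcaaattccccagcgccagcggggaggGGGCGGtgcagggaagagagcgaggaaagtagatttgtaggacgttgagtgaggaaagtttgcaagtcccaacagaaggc
Col4a6: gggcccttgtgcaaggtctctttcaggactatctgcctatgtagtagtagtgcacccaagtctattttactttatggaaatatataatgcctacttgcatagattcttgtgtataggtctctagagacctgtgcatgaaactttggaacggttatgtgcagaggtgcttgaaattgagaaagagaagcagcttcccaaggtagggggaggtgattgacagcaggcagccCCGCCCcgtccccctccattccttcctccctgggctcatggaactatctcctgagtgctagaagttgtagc
Col3a1: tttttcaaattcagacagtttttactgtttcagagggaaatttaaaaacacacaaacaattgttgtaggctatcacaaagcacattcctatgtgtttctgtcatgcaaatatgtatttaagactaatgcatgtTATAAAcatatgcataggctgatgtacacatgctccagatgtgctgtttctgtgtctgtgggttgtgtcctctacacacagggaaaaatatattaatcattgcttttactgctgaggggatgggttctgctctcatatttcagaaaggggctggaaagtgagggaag
G and C made up 52.7%, 48.3% and 37.7% of these windows. Of 28 windows of 25 collagen chain genes in the table, 16 held a GC box on either strand, against 35.7% of all 32851 windows. CCAAT or its reverse complement was in 11 of the 28 and in 37.4% of all windows, and TATAAA or TTTATA in 5 of the 28 and in 13.6%. A match describes these letters only.

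In wild-type aortas kept for 4 h in medium, most collagen chains stood far below their level in fresh wild-type intima. The age of the incubated aortas is not in the labels, so a difference in age and the incubation cannot be told apart. A fall here means a level lower than in fresh wild type. Of 22 tested chain genes 18 fell and 0 rose, and the falls took in all 4 tested fibrillar chains, all 8 basement membrane chains and 6 of 10 others. The median difference was −1.45, against −0.13 over all genes tested. In limma 34.4% of all 7508 tested genes fell and 24.3% rose in this comparison, so a fall by itself was common. With the genes limited to those whose means exceeded the 40th percentile in both groups, 17 of 19 chain genes fell, with a median of −1.71, against 33.5% of all genes. The medium and fresh arrays did not overlap for 15 of the 22, Col8a1 alone of these being higher in medium, against 52.4% of all genes.

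**Figure D1:**
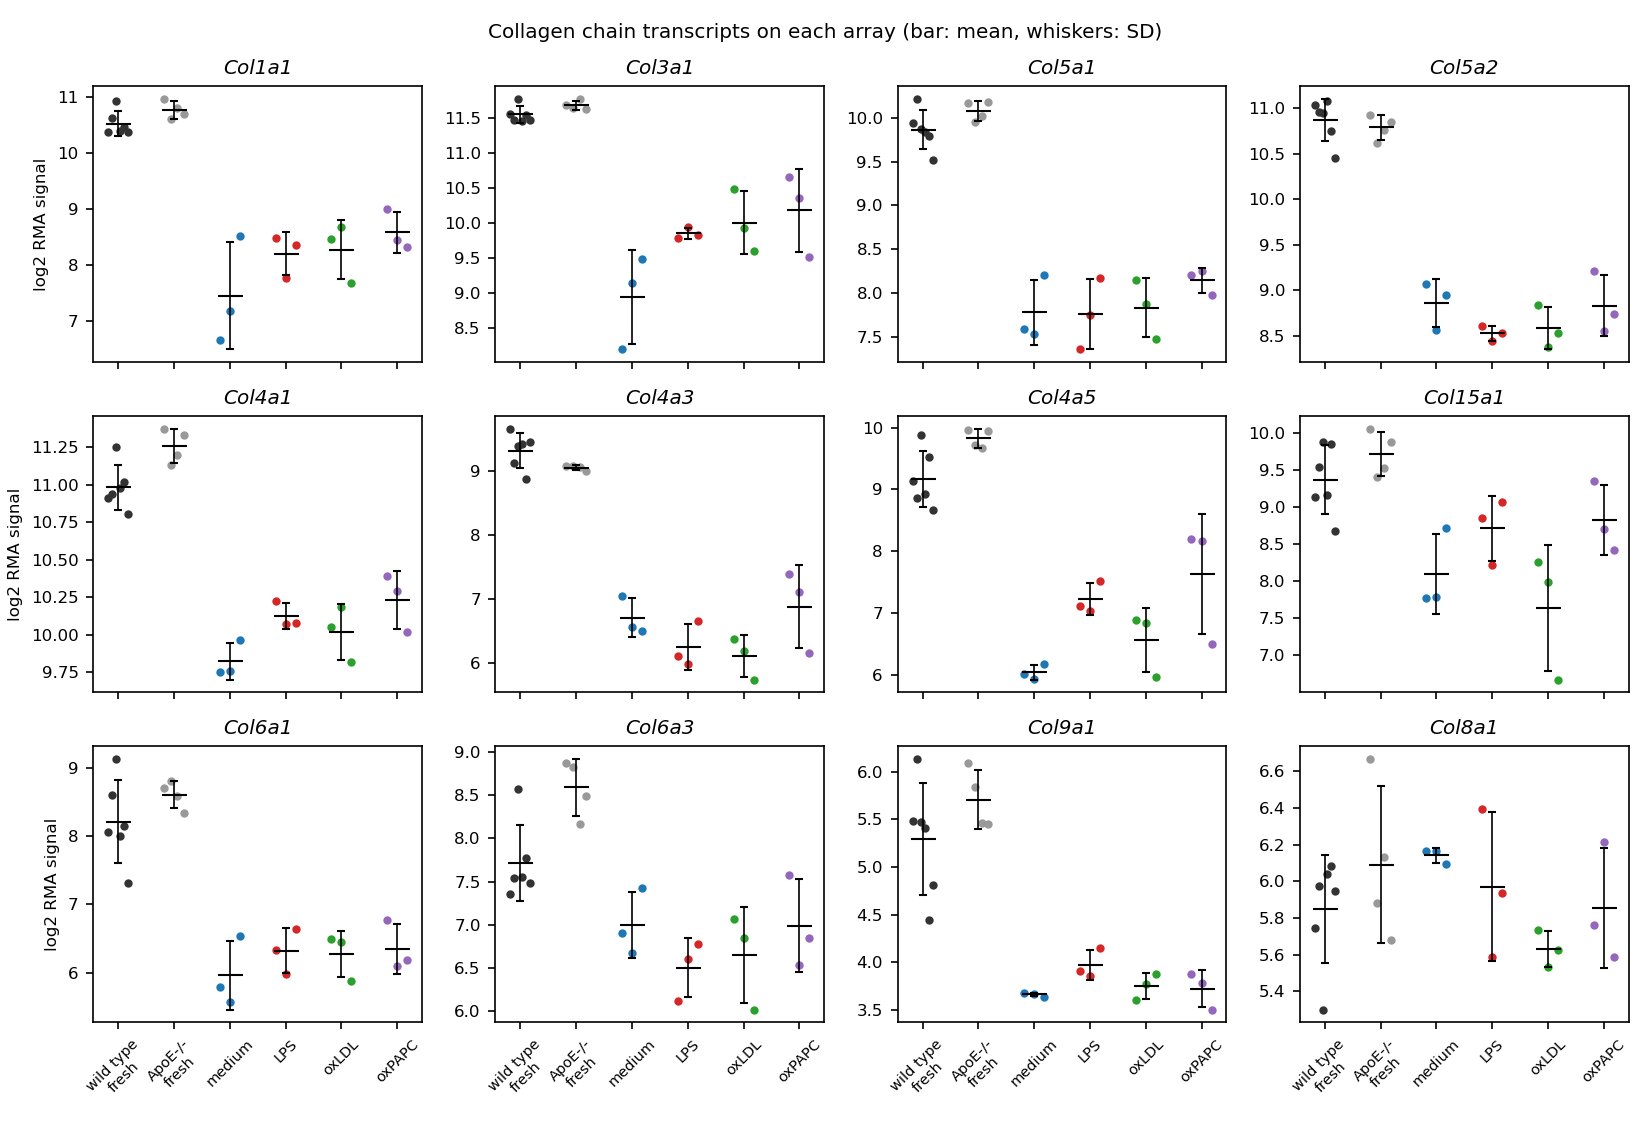
Log2 RMA signal of 12 collagen chain genes on each of the 22 arrays (points), by group, with a bar for the group mean and whiskers of 1 SD. The upper panels show fibrillar chains, the middle ones basement membrane chains and the lower ones others. Col1a1 ran from 10.37 to 10.97 on the 10 fresh arrays and from 6.66 to 8.99 on the 12 incubated ones.

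Among the fibrillar chains, Col1a1, the main chain of type I collagen, measured 10.37 at the lowest, 10.42 at the median and 10.93 at the highest in fresh wild type. In medium it measured 6.66, 7.17 and 8.51 in replicates 9, 10 and 11. All 3 medium arrays lay below every fresh array, and they were spread more widely than the fresh ones. Col1a1 fell 8.41-fold (log2 −3.07 ± 0.32 SE, adjusted p = 2.09e-05, limma, n = 3 and 6). Col3a1, the chain of type III collagen, measured 11.47, 11.52 and 11.78 as the lowest, median and highest in fresh wild type, and 8.20, 9.15 and 9.49 in the medium replicates. It fell 6.09-fold (−2.61 ± 0.23, adjusted p = 6.76e-06), again without overlap.

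Type V collagen sits inside type I fibrils and limits their width, and its chains Col5a1 and Col5a2 fell to nearly the same extent on the probe sets used. Their other probe sets differed between medium and fresh wild type by −1.88 and −2.07 for Col5a1 and by −2.76 for Col5a2. Col5a1 ran from 9.52 to 10.22 with a median of 9.86 in fresh wild type and measured 7.60, 7.53 and 8.21 in medium, a fall by 2.08 ± 0.18 (adjusted p = 5.97e-06). Col5a2 ran from 10.46 to 11.08 with a median of 10.95 and measured 9.07, 8.57 and 8.95 in medium. Its fall by 2.01 ± 0.16 (adjusted p = 3.85e-06) was without overlap, as for Col5a1.

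**Figure D2:**
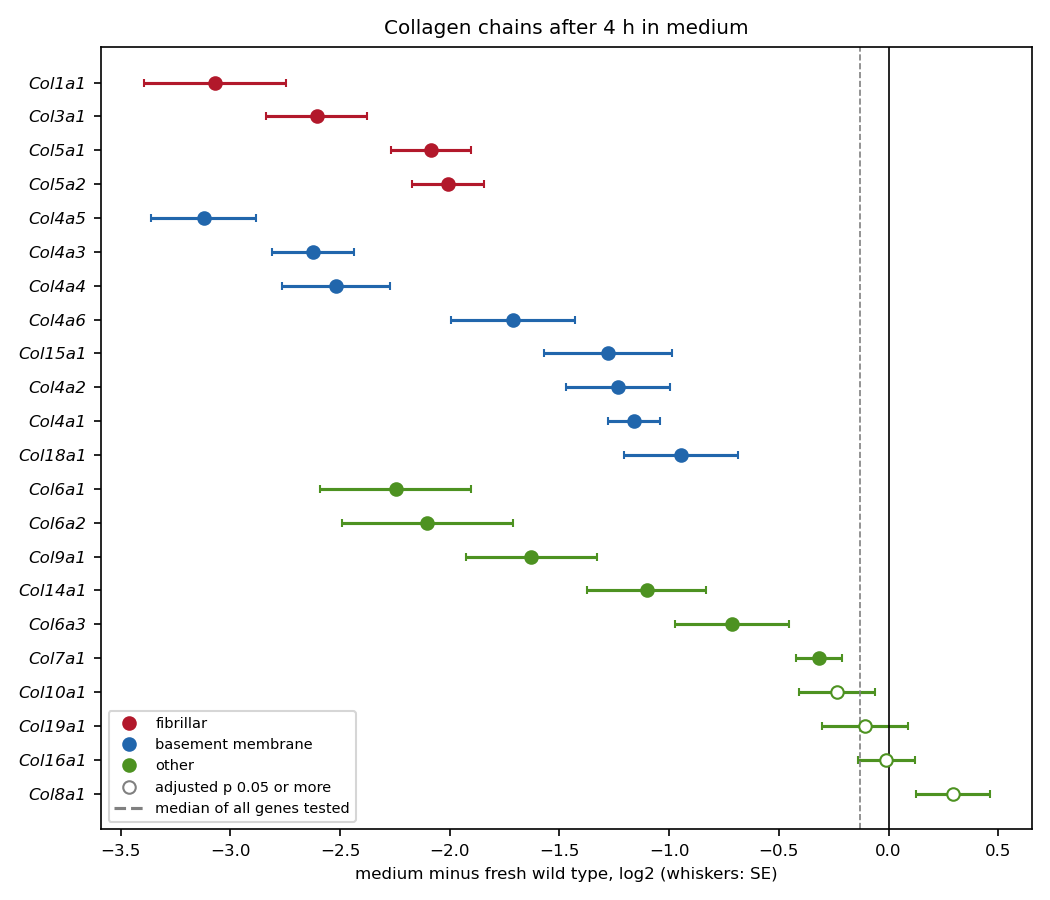
Difference in log2 signal between medium and fresh wild type for each tested collagen chain gene, with whiskers of 1 standard error and filled symbols for an adjusted p under 0.05. The fibrillar chains lie between −3.07 and −2.01, and Col8a1 is the highest at 0.29.

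All 6 type IV chains were lower in medium than in fresh wild type, without overlap between the groups, by a median of 2.12. The pairs of neighbouring genes fell by unlike amounts. Col4a1 measured 10.80, 10.96 and 11.25 as lowest, median and highest in fresh wild type, and 9.75, 9.75 and 9.96 in medium. Its partner in the trimer and on the chromosome, Col4a2, measured 7.71, 8.41 and 9.11 in fresh wild type and 7.07, 7.11 and 7.37 in medium. Col4a1 fell 2.24-fold (−1.16 ± 0.12, adjusted p = 1.83e-05) and Col4a2 2.35-fold (−1.23 ± 0.24, adjusted p = 0.00115), falls that differ by less than their standard errors.

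Chains of the second type IV network fell further. Col4a3 measured 8.88, 9.41 and 9.67 as lowest, median and highest in fresh wild type and 7.05, 6.56 and 6.49 in medium. Col4a4, its neighbour on chromosome 1, measured 7.63, 8.09 and 8.23 in fresh wild type and 6.18, 4.86 and 5.48 in medium. The falls were 6.16-fold for Col4a3 (−2.62 ± 0.19, adjusted p = 1.77e-06) and 5.73-fold for Col4a4 (−2.52 ± 0.24, adjusted p = 1.24e-05). Col4a5, which joins both networks and whose window is printed above, measured 8.66, 9.03 and 9.88 in fresh wild type and 6.02, 5.94 and 6.18 in medium. On the probe sets used, Col4a5 had the largest fall of all 22 chains, 8.71-fold (−3.12 ± 0.24, adjusted p = 2.98e-06), and its medium arrays lay close together. Its other probe set differed by −2.42, and that of Col3a1 by −3.80.

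Col4a6, the X-linked neighbour of Col4a5, fell less on the probe sets used. It measured 7.40, 8.05 and 8.97 as lowest, median and highest in fresh wild type and 6.08, 6.28 and 6.65 in medium, a 3.28-fold fall (−1.71 ± 0.28, adjusted p = 0.000443). The differences between the falls of different chains were not tested. They also depend on the probe set. The other ones of Col4a5 and Col4a6, above the percentile on all 22 arrays, differed by −2.42 and −2.34.

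**Figure D3:**
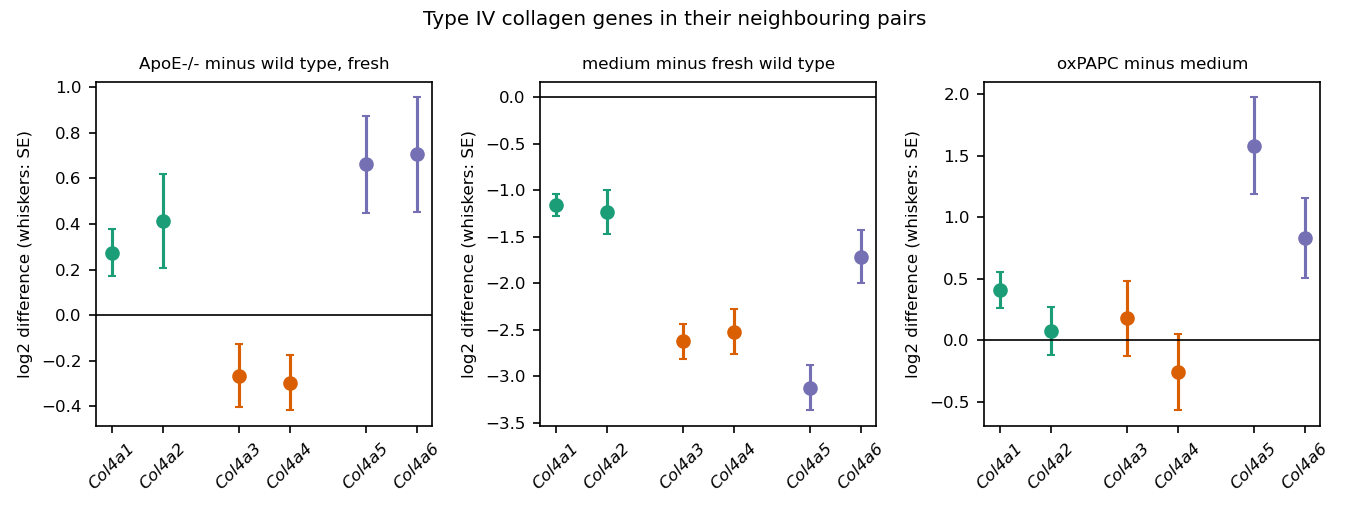
Difference in log2 signal of the 6 type IV chain genes, drawn by pairs of neighbouring genes in 1 colour each, for the knockout, for medium and for oxPAPC, with whiskers of 1 standard error and separate vertical scales. Of the points drawn, those of medium are all called lower, and with oxPAPC only Col4a5 (1.58) is called.

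The multiplexins, whose C-terminal fragments include endostatin from Col18a1, fell less and with overlap. Col15a1 measured 8.68, 9.35 and 9.87 as lowest, median and highest in fresh wild type and 7.78, 7.79 and 8.71 in medium, so that medium replicate 11 reached the fresh range (−1.28 ± 0.29, adjusted p = 0.00333). Col18a1 measured 7.62, 7.85 and 8.54 in fresh wild type and 6.64, 6.65 and 7.65 in medium, with the same replicate inside the fresh range (−0.94 ± 0.26, adjusted p = 0.00936).

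Among the other chains the type VI genes did not fall equally. Col6a1 measured 7.32, 8.11 and 9.13 as lowest, median and highest in fresh wild type and 5.78, 5.57 and 6.53 in medium. Col6a2, its neighbour on chromosome 10, measured 7.70, 8.38 and 9.31 in fresh wild type and 5.60, 6.33 and 7.17 in medium. Neither overlapped, with falls of 4.75-fold for Col6a1 (−2.25 ± 0.34, adjusted p = 0.000263) and 4.29-fold for Col6a2 (−2.10 ± 0.39, adjusted p = 0.000899). Col6a3, the long chain that completes the trimer, measured 7.36, 7.55 and 8.57 in fresh wild type and 6.91, 6.67 and 7.42 in medium. It fell 1.64-fold with overlap (−0.71 ± 0.26, adjusted p = 0.0345).

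Col14a1, which decorates the surface of fibrils, measured 7.06, 7.59 and 8.13 as lowest, median and highest in fresh wild type and 7.13, 6.45 and 5.89 in medium. It fell by 1.10 ± 0.27 (adjusted p = 0.00489), with medium replicate 9 inside the fresh range. Its other probe set differed by only −0.17. Col7a1, the anchoring fibril chain known from skin, lay near the dim end, at 4.92 to 5.21 in fresh wild type and 4.81, 4.80 and 4.65 in medium (−0.32 ± 0.11, adjusted p = 0.0238). Col9a1, a fibril-associated chain known from cartilage, ran from 4.44 to 6.13 in fresh wild type and measured 3.68, 3.67 and 3.64 in medium. It entered the test through the fresh arrays and its medium mean was below the 40th percentile, so the size of its fall (−1.63 ± 0.30, adjusted p = 0.000843) depends on values near background.

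4 tested chains were not called. Col8a1, a short-chain network collagen of the vessel wall, measured 5.30, 5.96 and 6.08 as lowest, median and highest in fresh wild type and 6.17, 6.16 and 6.10 in medium. The medium arrays lay just above all fresh ones, without passing the test (0.29 ± 0.17, adjusted p = 0.153), and its other probe set differed by 0.86. Median centring and cyclic loess scaling, which moved the median of all genes up by 0.15 and 0.14, each called Col8a1 as higher, and then 16 chains as lower. Col10a1 measured −0.23, Col19a1 −0.11 and Col16a1 −0.01 in difference, with adjusted p-values of 0.27, 0.65 and 0.953.

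The other probe sets of the called chains, 11 in all, had a difference of the same sign in 11 of 11 cases, at −3.80 to −0.09. The smallest, of Col9a1, comes from a probe set below the 40th percentile on all 22 arrays. That of Col14a1 was above the percentile on all fresh wild-type and medium arrays. It differed by only −0.17, against −1.10 for the probe set used. The fall was also there in aortas incubated with a stimulus. With the LPS, oxLDL or oxPAPC arrays in place of medium, 15, 17 and 15 of 23 tested chains were lower than in fresh wild type, against 35.5%, 33.4% and 35.9% of all genes, and 1, 1 and 2 were higher, against 23.2%, 22.9% and 20.9%. All 4 fibrillar and all 6 type IV chains were lower in each. These comparisons share the 6 fresh arrays. Those called higher were Col9a3 with LPS and with oxPAPC, Col17a1 with oxLDL, and Col19a1 with oxPAPC (1.13, adjusted p = 0.00684). Col9a3 and Col17a1 had fresh wild-type means below the 40th percentile and entered the test through the stimulus arrays. Where both group means exceeded the percentile, 0, 0 and 1 of 19 chains were higher, the 1 being Col19a1. For 12 of 22 chains all 12 incubated arrays lay below all 10 fresh arrays, which held for 13.1% of all genes. These were Col1a1, Col3a1, Col5a1, Col5a2, Col4a1 to Col4a5, Col6a1, Col6a2 and Col9a1.

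Markers of the cell types in the scraped intima moved with this comparison. Of 12 smooth muscle markers 10 were lower in medium, with a median of −1.07, and Acta2, smooth muscle actin, measured −1.28 ± 0.23. The mean of the list ran from 7.62 to 8.61 on the medium arrays and from 8.77 to 9.69 on the fresh wild-type arrays. With that mean as a covariate 10 of 22 chains were called lower, against 30.4% of all genes: Col1a1, Col3a1, Col5a1, Col5a2, Col4a1, Col4a3, Col4a4, Col4a5, Col9a1 and Col14a1. In that fit Col4a5 measured −2.42 (adjusted p = 0.000858), Col4a3 −3.06 (adjusted p = 0.000151) and Col1a1 −1.86 (adjusted p = 0.00312). Col4a2 (−0.58, adjusted p = 0.226), Col6a2 (−0.58, adjusted p = 0.25) and Col15a1 (−0.19, adjusted p = 0.662) were not called in it, while Col18a1 and Col6a3 turned to 0.11 and 0.22.

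Of 8 tested fibroblast and adventitia markers 5 were lower and 2 higher in medium, their list mean running from 6.16 to 6.67 against 6.50 to 6.88 in fresh wild type. Of 9 macrophage and leukocyte markers 8 were higher, with the list mean at 6.13 to 6.34 against 4.64 to 5.31. Endothelial markers divided, 3 higher and 2 lower of 13, at list means of 8.42 to 8.58 and 8.20 to 8.80. Of 6 chondrocyte markers 2 were tested and 1 was higher, the transcription factor Sox9 (3.62 ± 0.33, adjusted p = 7.78e-06), while Comp, Matn3, Cnmd and Hapln1 were below the percentile. The smooth muscle list means of medium and fresh wild type did not overlap, so that covariate largely goes with the group. Which chains kept or lost their call in that fit therefore cannot show the part of smooth muscle. The fibroblast list mean was also fitted as a covariate, and it overlapped between the groups only through medium replicate 10 (6.67). The part of these cell types in the collagen differences was not tested.

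**Figure D4:**
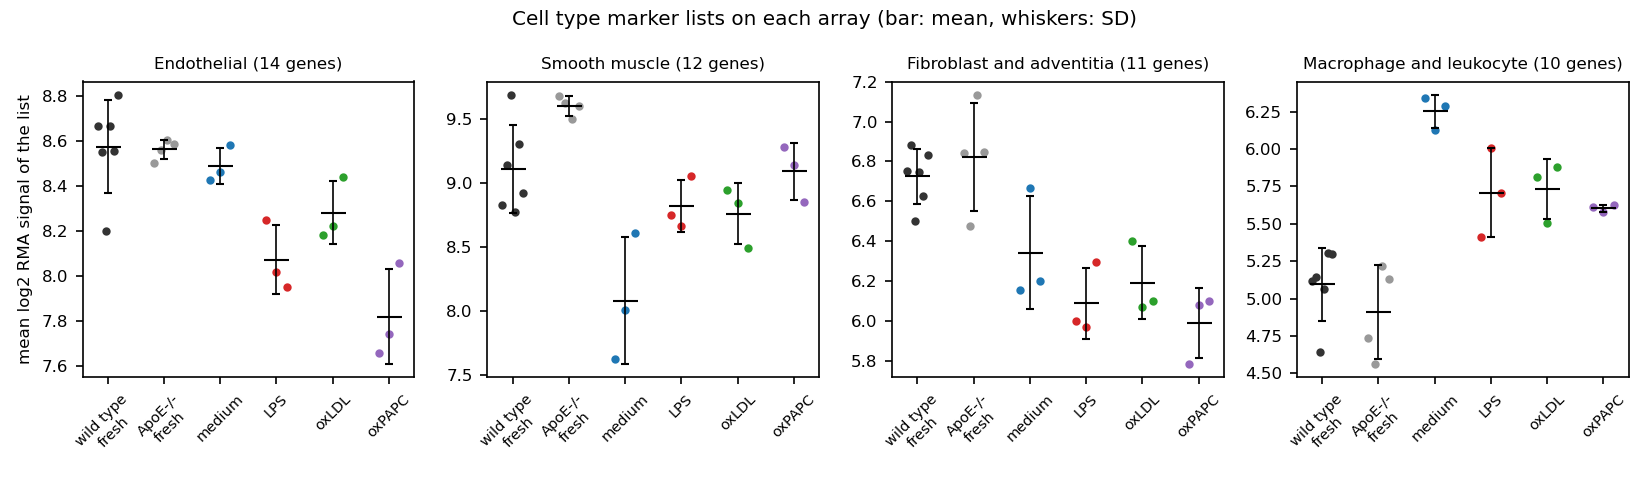
Mean log2 signal of each list of cell type markers on each of the 22 arrays, by group, with a bar for the group mean and whiskers of 1 SD. The smooth muscle list is lowest in medium, at 7.62 to 8.61, and the endothelial list lowest with oxPAPC, at 7.66 to 8.06.

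Most genes of a list for making collagen ready for use were lower in medium too. The list holds enzymes that hydroxylate and glycosylate the chains, folding and export factors, propeptide removers, cross-linkers and receptors. In medium 16 of its 26 tested genes were lower and 1 was higher than in fresh wild type, against 34.4% and 24.3% of all genes, and the median was −0.63, against −0.13. Of 10 hydroxylation and glycosylation genes 7 fell, among them Crtap, a part of the prolyl 3-hydroxylation complex (−0.99 ± 0.16, adjusted p = 0.000386), P3h3 (−0.80) and the prolyl isomerase Ppib (−0.80). Of 5 folding and export genes 4 fell, with the coat protein Sec23a at −0.84, and Mia3, which loads collagen into vesicles, and Sec24d at −0.64 each. Pcolce2, an enhancer of propeptide removal (−0.89), and the procollagen protease Bmp1 (−0.82) fell too. Among the cross-linking oxidases Loxl3 (−0.95), Loxl1 (−0.86) and Lox (−0.60) fell, while Loxl4 rose (0.98 ± 0.17, adjusted p = 0.000709). None of 4 tested receptors passed the test in limma, with 2 at an unadjusted p under 0.05.

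Next, each stimulus was compared with medium alone, which asks what it adds within the same 4 h. With oxPAPC 4 of 23 tested chains rose and 0 fell, in limma over 7550 genes. The 4 belong to different types: Col4a5, Col3a1, Col19a1 and Col7a1. Over all genes 8.34% rose and 12.9% fell, and with both group means above the 40th percentile 4 of 21 chains rose, against 8.06% of all genes. The median difference of the 23 chains was 0.39, against −0.05 over all genes, and 9 of them had an unadjusted p under 0.05.

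Col4a5 measured 6.02, 5.94 and 6.18 in medium, as above, and 8.20, 8.17 and 6.51 in oxPAPC replicates 11, 12 and 13. Replicate 13 stood far nearer to medium than the other two, although the groups did not overlap. Col4a5 rose 2.99-fold (1.58 ± 0.39, adjusted p = 0.0175, n = 3 and 3), which left it below fresh wild type on all 3 arrays. Its neighbour Col4a6 measured 7.72, 7.24 and 6.54 with oxPAPC, with replicate 13 inside the medium range, and was not called (0.83 ± 0.33, adjusted p = 0.0878).

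The remaining type IV chains differed in their values with oxPAPC, and none was called. Col4a1 measured 10.39, 10.29 and 10.02, all above the medium arrays (0.41 ± 0.15, adjusted p = 0.0661). Col4a3 measured 7.39, 7.10 and 6.15 and Col4a4 5.13, 5.51 and 5.10, both overlapping with medium, at differences of 0.18 and −0.26. Of the multiplexins Col18a1 measured 8.02, 7.92 and 7.31 (0.77 ± 0.28, adjusted p = 0.0656) and Col15a1 9.35, 8.70 and 8.42 (0.73 ± 0.41, adjusted p = 0.221).

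Among fibrillar chains Col3a1 measured 10.66, 10.37 and 9.52 with oxPAPC, all above the medium arrays, with replicate 13 only just so. It rose 2.35-fold (1.23 ± 0.35, adjusted p = 0.0293). Col1a1 measured 8.99, 8.44 and 8.32, where medium replicate 11 at 8.51 lay among the oxPAPC arrays (1.13 ± 0.42, adjusted p = 0.0717). Col5a2, which lies next to Col3a1 on chromosome 1, measured 9.21, 8.55 and 8.74, a difference of −0.03.

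Col19a1, a fibril-associated chain found in basement membrane zones, measured 4.77, 4.72 and 4.45 in medium and 6.45, 6.16 and 5.05 with oxPAPC. It rose 2.36-fold (1.24 ± 0.31, adjusted p = 0.0179) from the edge of the dim range, and it was also above its fresh wild-type level, as given above. Its other probe set lay below the 40th percentile on every array. Col7a1 measured 5.05, 5.43 and 5.07 with oxPAPC (0.43 ± 0.14, adjusted p = 0.0484), a call that was lost in 10 of 14 alternatives. The groups did not overlap for 5 of 23 chains, against 40.1% of all genes.

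These rises rested on few arrays and moved with smooth muscle markers. Without oxPAPC replicate 11 or 12 no chain was called, without medium replicate 9 the number was 1, and without oxPAPC replicate 13 it was 7. No share of all genes called in these smaller fits is set beside the counts. They show only how the calls depend on single arrays. Of 12 smooth muscle markers 9 were higher with oxPAPC (median 1.06), at list means of 8.85 to 9.28 against 7.62 to 8.61. With them as a covariate 0 of 23 chains and no gene at all was called, and Col3a1 turned to −0.12. Since these list means did not overlap between the groups, that fit cannot show the part of smooth muscle. Of 13 endothelial markers 7 were lower (median −0.86), as were 6 of 10 macrophage markers, and of 8 fibroblast markers 1 was higher and 2 were lower.

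In the collagen pathway list 6 of 27 genes rose with oxPAPC and 2 fell, against 8.34% and 12.9% of all genes, with medians of 0.02 and −0.05. The receptors Itgb1 (0.66 ± 0.11, adjusted p = 0.00385), Itga2 (0.75 ± 0.22, adjusted p = 0.0301) and Ddr2 (0.97 ± 0.32, adjusted p = 0.0486) rose. The integrin genes together encode a collagen-binding receptor, and Ddr2 is a receptor kinase for fibrillar collagen. The cross-linking oxidase Loxl1 (1.11), Bmp1 (0.74) and Tango2 (0.63) also rose, while Loxl4 (−0.95) and the hydroxylase P3h3 (−0.61) fell. The list places Tango2 under folding and export, where it was the only call. Whether it has any part in collagen export was not tested.

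**Figure D5:**
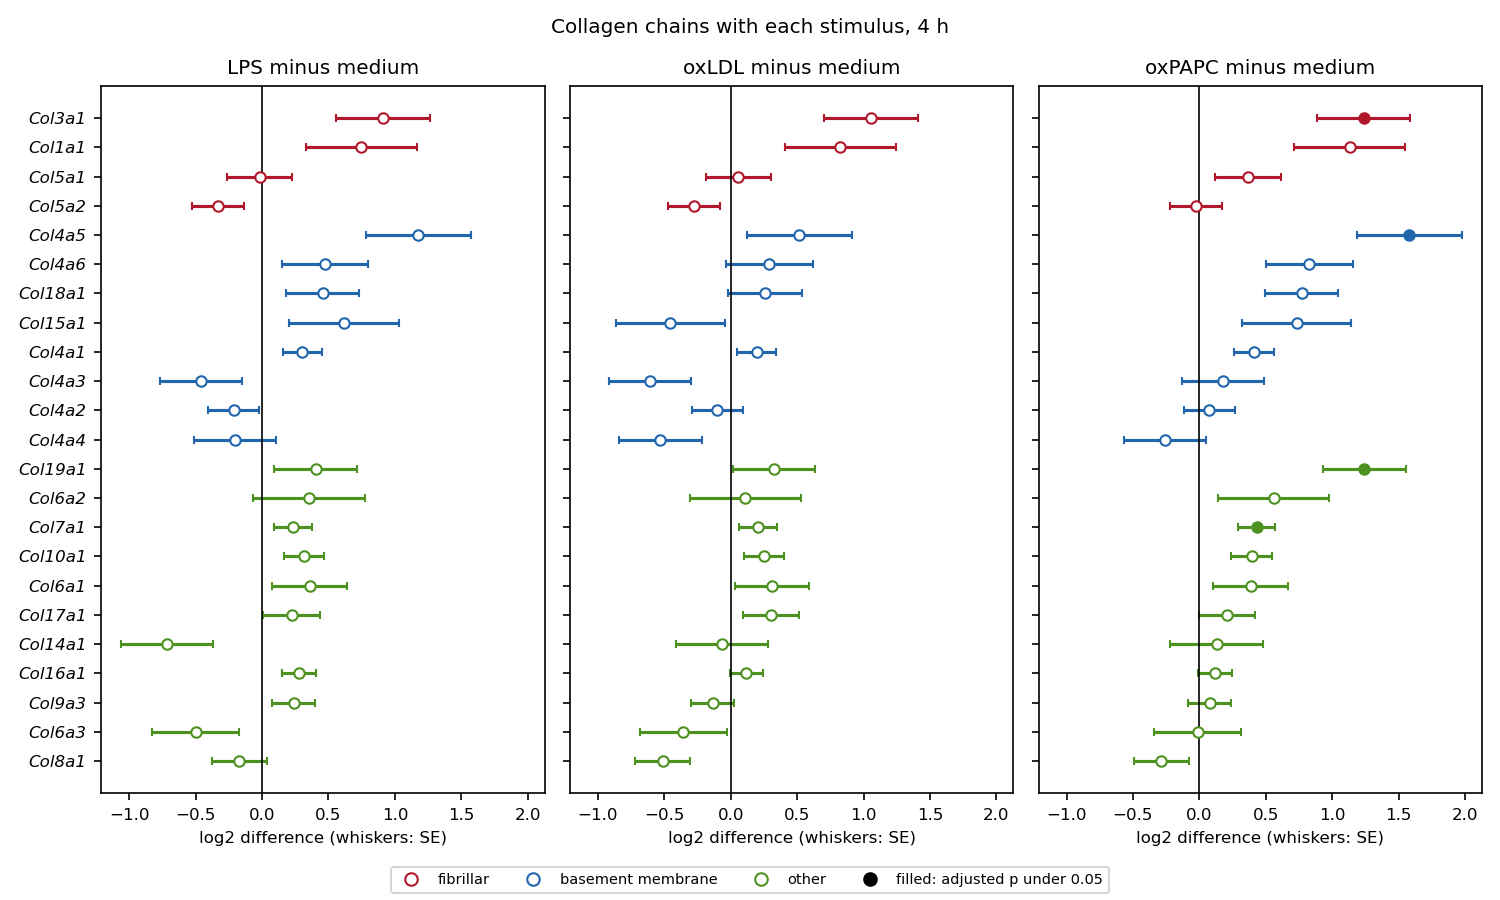
Difference in log2 signal from medium for each of the 23 tested chains with LPS, oxLDL and oxPAPC, with whiskers of 1 standard error and filled symbols for an adjusted p under 0.05. The 3 panels share the medium arrays, and the filled symbols are Col3a1, Col4a5, Col19a1 and Col7a1 with oxPAPC.

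With LPS 0 of 23 chains passed the test in limma, where 9.05% of all genes did, and 3 had an unadjusted p under 0.05. The chains with the smallest p of each type were Col4a5, Col3a1 and Col16a1. Col4a5 measured 7.12, 7.03 and 7.52 in LPS replicates 3, 4 and 10, all well above the medium arrays (1.18 ± 0.39, adjusted p = 0.0795). Its other probe set differed by 0.07 with LPS, by −0.35 with oxLDL, where the brighter one differed by 0.52, and by 0.96 with oxPAPC. Col3a1 measured 9.79, 9.94 and 9.83, also above all of medium (0.91 ± 0.35, adjusted p = 0.118). Col16a1, a fibril-associated chain, measured 0.28 ± 0.13 in difference (adjusted p = 0.177) near the dim end. The LPS and medium arrays did not overlap for 6 of the 23, against 34.8% of all genes, and the median difference was 0.28, against −0.03.

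Of the smooth muscle markers 3 of 12 were higher with LPS (median 0.77), and 4 of 13 endothelial markers were lower. Their part in the collagen values was not tested. A fit with the smooth muscle covariate cannot show it, since the list means of LPS and medium did not overlap and that covariate goes with the group. From the pathway list 3 of 27 genes rose, against 3.36% of all genes. Itga2, the collagen-binding integrin chain, had the largest rise, 3.06-fold (1.61 ± 0.22, adjusted p = 0.00204). Tango2, for which any part in collagen export was not tested, rose by 0.57 and Itgb1 by 0.46.

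With oxLDL 0 of 23 chains passed in limma, where 2.81% of all genes did, and 2 had an unadjusted p under 0.05. Col3a1 measured 10.49, 9.93 and 9.60 in oxLDL replicates 14, 15 and 16, all above medium (1.06 ± 0.35, adjusted p = 0.115). Col4a3 measured 6.37, 6.19 and 5.73, all below medium (−0.61 ± 0.31, adjusted p = 0.276). Col8a1 measured 5.73, 5.54 and 5.62, also below medium (−0.51 ± 0.21, adjusted p = 0.18). Col4a5 measured 6.88, 6.85 and 5.96, with replicate 16 inside the medium range. No overlap was seen for 3 of the 23 chains, against 28.2% of all genes, and the median difference was 0.12. Of 12 smooth muscle markers 0 were called in limma, with 7 at an unadjusted p under 0.05 (median 0.66). Itga2 rose (0.97 ± 0.22, adjusted p = 0.0365), alone of 27 tested pathway genes, where 0.742% of all genes rose.

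The responses were then set against each other directly, as 3 contrasts in the same fit, with oxLDL and oxPAPC at the same mass concentration. No chain was called in any of them by limma. Between oxLDL and oxPAPC 12.4% of all genes were called at an adjusted p under 0.05, and 4 of 23 chains had an unadjusted p under 0.05. Col15a1 measured 8.25, 7.99 and 6.67 with oxLDL, all below the oxPAPC arrays (−1.19 ± 0.41, adjusted p = 0.0793). Col4a5 was lower by 1.06 with oxLDL than with oxPAPC (adjusted p = 0.0968), Col19a1 by 0.92 (adjusted p = 0.075) and Col4a3 by 0.78 (adjusted p = 0.116). Without oxPAPC replicate 13 this contrast and that of LPS with oxPAPC each had 3 chains called. These counts also have no share of all genes beside them and are no result about the chains.

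Between LPS and oxPAPC 2 chains had an unadjusted p under 0.05, Col19a1 (−0.84 ± 0.31, adjusted p = 0.12) and Col14a1 (−0.84, adjusted p = 0.156). At an adjusted p under 0.05, 8.65% of all genes were called. Between LPS and oxLDL 2 chains also had an unadjusted p under 0.05, Col15a1 (1.07 ± 0.41, adjusted p = 0.156) and Col9a3 (0.37 ± 0.16, adjusted p = 0.204). At an adjusted p under 0.05, 5.07% of all genes were called. The pathway genes gave calls in these contrasts. P4hb, a subunit of the prolyl 4-hydroxylase, was higher with oxLDL than with LPS (LPS minus oxLDL −0.99 ± 0.15, adjusted p = 0.00576) and than with oxPAPC (0.69 ± 0.15, adjusted p = 0.0133). LPS exceeded oxPAPC for Loxl4 (1.08 ± 0.22, adjusted p = 0.0132) and Itga2 (0.86 ± 0.22, adjusted p = 0.0302), and lay below it for Sec24d (−0.70 ± 0.18, adjusted p = 0.0324).

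Fresh intima of ApoE -/- and wild-type mice was compared last. No chain of 22 tested passed in limma at an adjusted p under 0.05, where 0.427% of all 7264 genes did. At an unadjusted p under 0.05 there were 7, a threshold at which all genes were not counted. The values of 18 chains were higher and of 4 lower in the knockout, with a median of 0.26 against −0.02 over all genes. For 0 of the 22 were the groups without overlap, against 5.18% of all genes.

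Col6a3 came nearest to the threshold. It measured 8.87, 8.83, 8.17 and 8.49 in knockout replicates 3 to 6 and 7.36, 7.55 and 8.57 as lowest, median and highest in wild type (0.88 ± 0.23, adjusted p = 0.0991). The overlap came from wild-type replicate 12, which alone reached the knockout range, and without it Col6a3 (1.05, adjusted p = 0.0201) and Col4a6 were called higher. Over all fits with an array left out the number of calls ran from 0 to 2. No share of all genes stands beside these counts, so they are no result about the chains. In wild-type replicate 12 the smooth muscle list had its highest wild-type mean (9.69) and the endothelial list its lowest (8.20).

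None of the type IV chains was called in the knockout. Col4a5 measured 9.97, 9.73, 9.67 and 9.95 (0.66 ± 0.21, adjusted p = 0.151) and Col4a6 9.09, 8.78, 8.42 and 8.73 (0.71 ± 0.25, adjusted p = 0.183), mostly in the upper part of the wild-type range or above it. The knockout difference on their other probe sets was 0.27 for Col4a5 and 0.88 for Col4a6. Col4a1 measured 11.37, 11.13, 11.20 and 11.33 (0.27 ± 0.10, adjusted p = 0.208) and Col4a2 9.02, 8.83, 8.75 and 8.71 (0.41 ± 0.21, adjusted p = 0.316). Col4a3 measured 9.08, 9.08, 9.06 and 9.01 (−0.27 ± 0.14, adjusted p = 0.333) and Col4a4 7.78, 7.79, 7.64 and 7.70 (−0.30 ± 0.12, adjusted p = 0.232), both overlapping with wild type.

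Of the fibrillar chains Col1a1 had the smallest p, with 10.97, 10.60, 10.80 and 10.69 in the knockout (0.24 ± 0.13, adjusted p = 0.344). All 12 smooth muscle markers had higher values in the knockout (median 0.49), though none was called, and their list mean ran from 9.50 to 9.68 against 8.77 to 9.69. With that mean as a covariate the knockout difference was 0.26 for Col6a3 (adjusted p = 0.669) and 0.12 for Col4a5 (adjusted p = 0.859). Of the wild-type arrays only replicate 12 (9.69) reached the knockout range of the list mean, the next being replicate 14 (9.30). That covariate therefore largely goes with the genotype, and the fit cannot show the part of smooth muscle. In the pathway list 1 of 26 genes passed, the fibrillar collagen receptor Ddr2, which rose by 0.96 ± 0.16 (adjusted p = 0.0417), where 0.138% of all genes rose.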

How the data were processed

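RNA was measured on 22 single-colour Affymetrix arrays in 6 groups, taken from the sample labels. The deposited values are log2 signals made by the authors with RMA (affy), per the submitters' processing notes. RMA subtracts background, equalises the distributions of the arrays and summarises each probe set, so an overall rise or fall of transcripts is hidden. Versions and a genome build are not given in the sources used here. Probe set names come from the platform annotation, updated through RefSeq (GRCm38.p6) by gene identifier: of 22626 probe sets 18003 had 1 symbol, 287 several and 4336 none, those with several or none being left out, and 17977 matched.

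A gene was tested if the number of arrays on which it exceeded that array's 40th percentile reached the size of the smaller group. Two-sided tests used the lmFit and eBayes functions of limma 3.58.1, run under R 4.3.3. P-values were adjusted by Benjamini-Hochberg over all genes tested and called under 0.05. Shares of all genes refer to this adjusted threshold or to overlap. None was taken at an unadjusted p under 0.05, so counts of chains at that threshold have no share beside them. Every ± is a standard error from limma. Fresh groups and medium against fresh wild type were fitted alone, and the 4 incubated groups together. The number of arrays limits the precision.

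The collagen genes, the pathway and marker lists (endothelial, smooth muscle, fibroblast and adventitia, macrophage and leukocyte, chondrocyte) and the tests were chosen with earlier results of these data known. Named are all called chains, the chain with the smallest p of a type without a call, partners in a trimer, and the largest called changes per role of the pathway list. Others, such as unlisted neighbours of a called chain, were added after their values were seen. Alternatives were 2 other scalings, no filter, the mean of a gene's probe sets, trended and robust eBayes, smooth muscle or fibroblast marker means as a covariate, other sets of arrays in the fit, and each array left out. The stimulus arrays in place of medium, and a replicate block in those fits, were added after seeing the data.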

Additional observations from a re-analysis of the deposited data

Results flagged for a closer look

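Each chain tested in fresh intima was examined, in the groups of 4 and 6 arrays, for an array far from the others of its group, in 44 combinations of gene and group. An array stood apart in 3 of them, where chance alone gives about 1 in 20, or 2.2. All 3 were fresh wild-type replicate 12, as the highest array. Col3a1 read 11.78 there, against 11.56 in the next array and 11.47 in the lowest. Col6a3 read 8.57, against 7.77 and 7.36. Col19a1 read 5.44, against 4.72 and 4.51. The smooth muscle list was highest and the endothelial list lowest of the wild-type arrays in this replicate, as given above, and their part was not tested.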

How the results depend on the processing

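The number of collagen chains called was recomputed under every alternative. Except where given above, no share of all genes stands beside these counts. They show only how the calls depend on the processing. For medium against fresh wild type it stayed at 16 to 18 of the 18 when an array was left out, and it was 10 with the smooth muscle covariate. Col1a1, Col3a1, Col5a1, Col5a2, Col4a1, Col4a3, Col4a4, Col4a5 and Col9a1 kept their call under all alternatives that tested them, the stimulus arrays in place of medium not being counted here. Col6a3 lost it in 7 of 17 alternatives, Col7a1 in 5 and Col18a1 in 3. In that comparison the smooth muscle covariate reversed Col18a1 (0.11) and Col6a3 (0.22). For oxPAPC the 4 calls became 0 with the smooth muscle covariate, 0 with the fibroblast covariate, 2 with only the groups compared in the fit, and 0 to 7 with an array left out. The fibroblast list means of oxPAPC (5.79 to 6.10) and medium (6.16 to 6.67) did not overlap. Neither covariate fit can therefore show the part of a cell type with oxPAPC. LPS gave 2 calls with no filter, 1 with the mean of probe sets and 1 with only the groups compared. With oxLDL 1 chain was called with no filter. Leaving out an array gave 0 to 2 calls for the ApoE comparison and 0 to 3 each for LPS against oxPAPC and oxLDL against oxPAPC. The count for LPS against oxLDL was 0 throughout. The smooth muscle covariate turned Col1a1 in the ApoE comparison to −0.038 and Col3a1 to −0.086 with LPS and −0.12 with oxPAPC. In each of these comparisons that covariate largely goes with the group, so the turns cannot show the part of smooth muscle. LPS against oxLDL turned for Col3a1 to 0.025 with the mean of probe sets and 0.10 without oxLDL replicate 14 (−0.35 to 0.10 over the arrays left out), and oxLDL against oxPAPC for Col5a2 to 0.12 with the mean of probe sets. Called pathway genes changed their balance of directions for oxPAPC without its replicate 11 (3 calls), for LPS against oxLDL without LPS replicate 10 (3), and for oxLDL against oxPAPC with the trended, robust fit (3) and without oxPAPC replicate 13 (5). The causes were not tested.

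In the comparisons with the stimulus arrays in place of medium, oxLDL and oxPAPC share 2 replicate numbers each with fresh wild type, and no label says that a number marks a shared animal or day. With the replicate number as a block, fitted after seeing the data and with 1 residual degree of freedom, 14 of 23 chains were called lower for oxLDL (median −0.87, against −1.42 without the block) and 16 of 23 for oxPAPC (−1.45, against −0.97), with 0 higher in either. Of all genes 36.7% and 34.1% were called in those fits, counting both directions. For the other comparisons no paired analysis was possible because the groups share fewer than 2 replicate numbers. Signals near the 40th percentile (Col7a1, Col9a1, Col9a3, Col10a1, Col16a1, Col17a1, Col19a1) limit what can be said of the size of a change, and fixed distributions hide a common shift.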
